A study of Mus musculus with 9 samples.

Results

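The 38 genes described here encode the actin cytoskeleton and its contractile apparatus, studied here in the mouse pre-adipocyte line 3T3-L1, together with serum response factor (Srf) and 4 genes commonly used as readouts of the coactivators YAP and MRTF. They were taken by gene symbol from the annotation of the array platform, and the brightest probe set of each gene (highest mean over 9 arrays) was used. Of the 38, 36 were found under the listed symbol, and Ctgf and Cyr61 were found by gene identifier under their newer symbols Ccn2 and Ccn1, out of 22180 genes with a probe set. A gene was tested where 3 or more of 9 arrays gave at least 6.51, the median over the whole table. This held for 37 of the 38 members and for 12630 genes in all. Cnn1, calponin 1 of smooth muscle, was not tested, with values between 5.91 and 6.18 on all 9 arrays.

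All 9 samples were confluent 3T3-L1 pre-adipocytes that had been growth-arrested for 48 h. The first group of 3 was treated with vehicle. The second group of 3 had received 100 nmol of scrambled control siRNA and was then given IBMX (a cAMP-raising inhibitor of phosphodiesterases) at 0.5 mM together with the synthetic glucocorticoid dexamethasone (Dex) at 1 µM for 6 h. The third group of 3 had received 100 nmol of siRNA against CD24, a glycoprotein of the cell surface, and the same IBMX/Dex. Per the labels the cells stood in 12-well plates. Whether vehicle cells were transfected is not in the labels, so a difference from vehicle cannot be told apart from an effect of transfection. No label says that samples of a group were separate cultures, and the p-values below measure the spread between these samples.

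Actin exists as free monomers and as filaments, and the balance between them is read by transcription. MRTF coactivators bind monomeric actin and stay in the cytoplasm. When filaments form, MRTF enters the nucleus and acts with SRF at a short sequence called the CArG box. YAP and TAZ act through TEAD factors and are active in spread cells under tension. In pre-adipocytes cAMP is known to round the cells and loosen stress fibres, and the loss of the fibroblast-like cytoskeleton belongs to early adipogenesis.

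The promoters of the members called in a comparison below were searched for a CArG box and for the TEAD motif GGAATG, on both strands (CATTCC on the other), in the 250 bases before the RefSeq start (GRCm38.p6). No CArG and TEAD match of a member overlapped. Stretches with a match are shown for Cnn2, Lima1, Mylk, Tpm1 and Ankrd1, which were lower with IBMX/Dex. The matched letters are in capitals, and each stretch reads 5′ to 3′ on the strand of the gene. The CArG boxes of Cnn2 (chr10:79988509-79988588, plus strand) and Lima1 (chr15:99820152-99820231, minus strand) start 56 and 47 bases before the start.
Cnn2: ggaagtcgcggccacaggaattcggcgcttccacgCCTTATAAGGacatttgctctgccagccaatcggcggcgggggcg
Lima1: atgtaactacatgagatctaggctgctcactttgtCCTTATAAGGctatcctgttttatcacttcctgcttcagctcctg
The matched CArG letters were the same in the 2 genes, and the flanks differed. The TEAD motif was matched in Mylk (chr16:34784757-34784832, plus strand), in Tpm1 (chr9:67049229-67049304, minus strand) and at 2 places in Ankrd1 (chr19:36119927-36120089, minus strand).
Mylk: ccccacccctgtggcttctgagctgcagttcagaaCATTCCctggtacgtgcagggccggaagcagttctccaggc
Tpm1: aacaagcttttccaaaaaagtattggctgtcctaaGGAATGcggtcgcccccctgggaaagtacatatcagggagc
Ankrd1: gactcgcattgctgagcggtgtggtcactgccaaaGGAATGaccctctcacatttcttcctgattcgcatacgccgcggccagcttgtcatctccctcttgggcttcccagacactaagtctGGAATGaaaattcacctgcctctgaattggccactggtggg
Flnc, also lower, had a TEAD match as well, and its stretch is not shown. Des, Tln1 and Actn1 had none of either kind in this window. Over all members, 34 had a promoter in the table. Of these, 7 held a CArG box (Actg1, Myl6, Myl9, Cnn2, Vcl, Lima1 and Srf, which had 2) and 15 the TEAD motif. Of all 32851 promoters, 1.47% held the CArG box and 12.6% the TEAD motif. The members were listed as SRF and YAP genes, and a match describes the letters of this window, not a binding site.

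The siRNA target was read on 2 probe sets of Cd24a. The arrays labelled CD24 siRNA replicates 1 and 2 were lower than their same-numbered scrambled arrays by 1.04 and 1.57 log2 units on the brighter one (differences of -1.04 and -1.57). On the other probe set these arrays differed by -2.05 and -2.03. The array labelled CD24 siRNA replicate 3 differed by -0.10 on the brighter probe set and by -0.18 on the other. Its label was thus not borne out by the target. Array medians lay between 6.47 and 6.56. Samples with the same replicate number deviated together from their group means (correlations across genes 0.377 to 0.732, against at most 0.116 between other numbers). Values from a limma fit with the replicate number as a block are therefore given beside the fit without it where they change a call.

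With scrambled siRNA and IBMX/Dex, 4 of the 37 tested members fell against vehicle and none rose: the muscle intermediate filament gene Des (1.62-fold lower), the talin gene Tln1 (1.57-fold), Mylk, myosin light chain kinase (1.43-fold), and Ankrd1, a stress-responsive ankyrin repeat protein and YAP target. Ankrd1 entered the test only through its vehicle arrays, since all 6 treated arrays lay under the filter level. Its call is therefore not counted as support, and 3 members were called without it. The 4, Ankrd1 included, are 10.8% of the members. Over all genes tested 6.94% were called in either direction and 3.6% as lower. With the replicate block 8 members fell, the same 4 and Cnn2, Tpm1, Flnc and Lima1, and Actn1 rose. These 9 are 24.3% of the members, beside 23.3% of all genes called with the block, so the share in either direction was near the background. By direction, 21.6% of the members were called lower (all genes 11.4%) and 2.7% higher (all genes 11.9%). The 24.3% and the 21.6% include Ankrd1, whose blocked call is not counted as support either.

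The differences of the members were mostly negative but small. In this comparison 32 of the 37 were below 0 (86.5%, against 46.6% of all genes tested), with a median of -0.24 log2 units beside 0.02 for all genes. Ankrd1 is among the 32. The median of the members was -0.52 for the samples numbered 1, -0.01 for those numbered 2 and -0.16 for those numbered 3, and 33, 20 and 31 of the 37 were lower. Over all genes tested the medians were -0.01, 0.08 and -0.02 in numbers 1, 2 and 3. Beside these, the members' median was lower in each number, and by most in number 1. Without vehicle replicate 1 the median of the members was -0.03, and -0.13 with that array left out of the blocked fit.

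**Figure D1:**
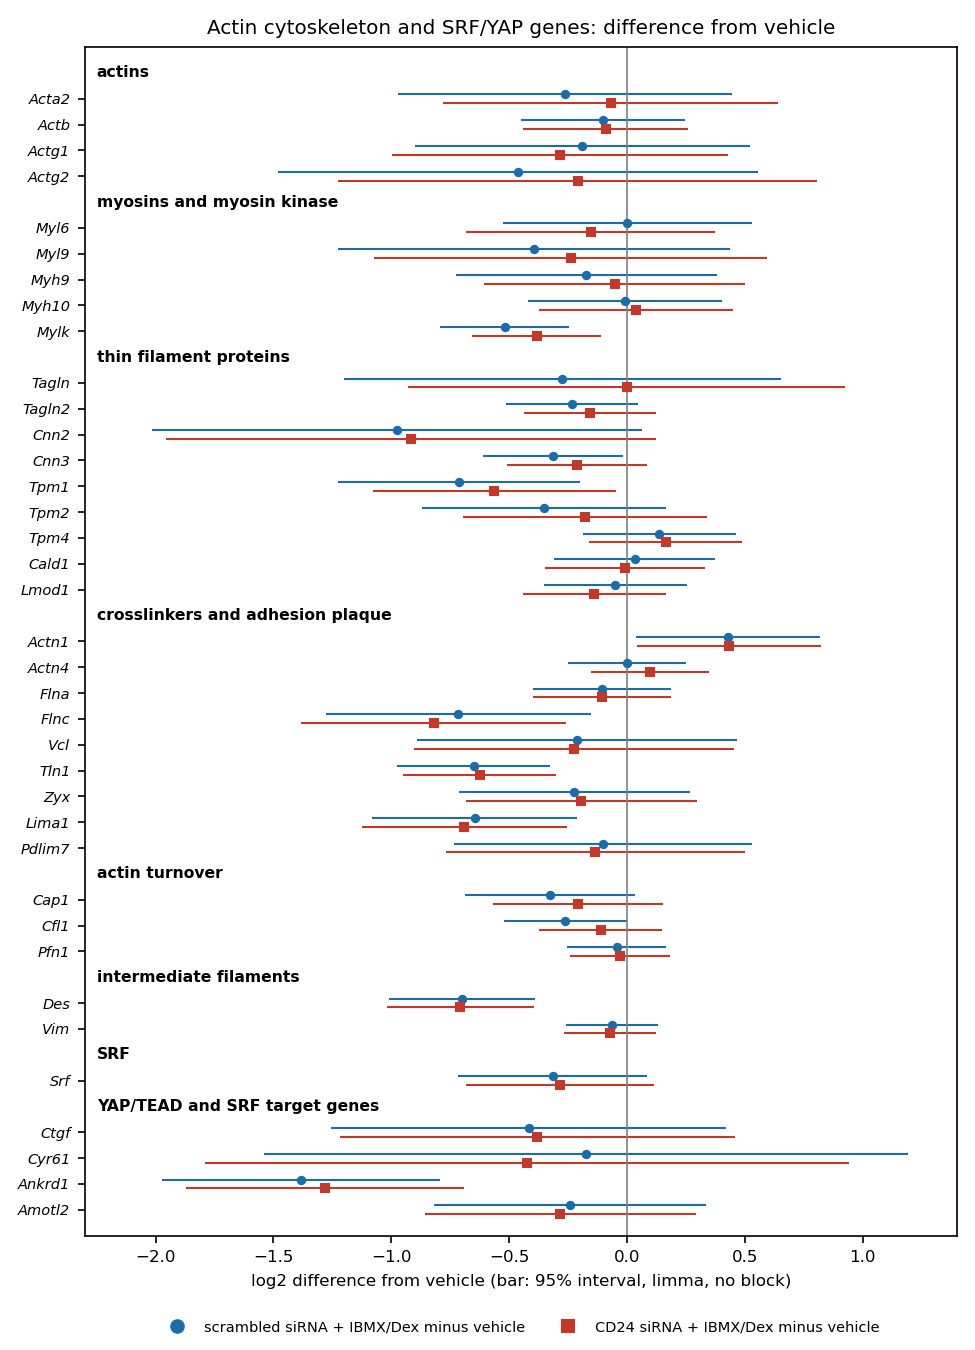
Log2 difference from vehicle for the 37 tested members, grouped by role, in the arrays with scrambled siRNA and IBMX/Dex (circles) and with CD24 siRNA and IBMX/Dex (squares). Bars are 95% intervals from limma without the block. Most points lie left of 0, and Actn1 lies farthest right at 0.43 in each comparison. Ankrd1 lies farthest left at -1.38 and -1.28, with its treated arrays under the filter level.

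The values of the called members differed in how they were spread. Ankrd1 stood at 7.40, 6.74 and 7.74 on the vehicle arrays (numbers 1, 2 and 3), at 6.07, 5.51 and 6.15 with scrambled siRNA and IBMX/Dex, and at 6.10, 5.79 and 6.14 with CD24 siRNA and IBMX/Dex. All 6 treated arrays lay below all 3 vehicle arrays. The same-numbered differences with scrambled siRNA were -1.33, -1.23 and -1.59 (limma log2 fold change -1.38 ± 0.26 SE, adjusted p = 0.0167). The call was lost without vehicle replicate 3 or scrambled replicate 2 (adjusted p up to 0.0537), and with the block in no case. The treated arrays were also under the 6.51 level, so the size of its difference is uncertain. With no filter on low values Ankrd1 was called as well (adjusted p = 0.0266).

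Among the other YAP and SRF readouts none was called in either fit. Ctgf, which encodes connective tissue growth factor, stood at 8.65, 7.04 and 7.31 with vehicle and at 7.55, 6.94 and 7.28 with scrambled siRNA and IBMX/Dex. Cyr61, a matrix-associated protein of the same family, stood at 10.97, 8.81 and 9.22 and then at 10.50, 8.80 and 9.18. For each of the pair the vehicle array numbered 1 was far above the others and the groups overlapped. Their log2 fold changes were -0.42 ± 0.37 SE (adjusted p = 0.565, limma) and -0.17 ± 0.61 SE (adjusted p = 0.904). Amotl2, an angiomotin-like junction protein that binds YAP, differed by -0.24 (adjusted p = 0.636), with -0.55 in number 1 and -0.17 or nearer 0 in the other numbers. Srf itself stood at 9.55, 8.85 and 9.33 with vehicle and at 9.09, 8.72 and 8.98 with scrambled siRNA, a difference of -0.32 ± 0.18 SE (adjusted p = 0.337; blocked adjusted p = 0.106). It was lower in all 3 numbers, and the groups overlapped.

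The 4 actins did not pass in either fit, and their differences ran from -0.10 (Actb, cytoplasmic beta actin) to -0.46 (Actg2, enteric smooth muscle actin). Actb stood at 11.71, 11.13 and 11.55 with vehicle and within 11.31 to 11.42 with scrambled siRNA and IBMX/Dex. Acta2, smooth muscle alpha actin, went from 13.03, 12.44 and 12.01 to 12.49, 12.42 and 11.79, so that the differences between numbers were larger than those between groups (log2 fold change -0.26 ± 0.31 SE, adjusted p = 0.682, limma). Actg2 stood at 9.21, 8.09 and 8.30 with vehicle and at 8.16, 8.20 and 7.86 with scrambled siRNA. Actg1, cytoplasmic gamma actin, differed by -0.19 on its brightest probe set and by -0.02 to -0.41 on 5 others. With CD24 siRNA these differences were -0.28 and -0.08 to -0.69. The probe set at -0.69 passed with the block in limma over all probe sets with 1 symbol (blocked adjusted p = 0.0371). A pair of those 5 held the same values on all 9 arrays to 2 decimals. Near-identical copies could share signal between the actin probe sets, so the values of single actins are uncertain.

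Of the 5 myosin genes Mylk alone fell. It stood at 6.99, 6.93 and 6.78 with vehicle, at 6.60, 6.34 and 6.21 with scrambled siRNA and at 6.56, 6.48 and 6.51 with CD24 siRNA. The vehicle arrays were above all others, at signals close to the filter level. Its log2 fold change was -0.52 ± 0.12 SE (limma adjusted p = 0.0372; blocked adjusted p = 0.00587). The call without the block held on leaving out 1 of the 9 arrays, scrambled replicate 1, and was lost on leaving out any of the other 8 (adjusted p up to 0.137). With the block it held for all 9. The light chain gene Myl9 differed by -0.39, the non-muscle heavy chain genes Myh9 and Myh10 by -0.17 and -0.01, and the light chain gene Myl6 by 0.00 (adjusted p between 0.586 and 0.998, limma).

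The thin filament group holds proteins that lie along actin. None of its 9 tested members passed without the block, and with it Cnn2 and Tpm1 fell. Cnn2, the calponin of non-muscle cells, stood at 11.86, 10.70 and 10.69 with vehicle and at 10.93, 9.80 and 9.59 with scrambled siRNA and IBMX/Dex. The groups overlapped because number 1 was high throughout, but the same-numbered differences were close to each other, at -0.93, -0.90 and -1.10. Its log2 fold change was -0.97 ± 0.46 SE (limma adjusted p = 0.252; blocked adjusted p = 9.1e-04), a 1.96-fold lower level. Tpm1, tropomyosin 1, stood at 9.75, 9.51 and 9.03 with vehicle and at 8.76, 8.97 and 8.43 with scrambled siRNA. Those groups did not overlap, and Tpm1 was 1.64-fold lower (log2 fold change -0.71 ± 0.23 SE, limma adjusted p = 0.0993; blocked adjusted p = 0.00193).

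The other thin filament members were not called with or without the block. Tpm2 differed by -0.35, Cnn3, the acidic calponin, by -0.31, Tagln, the smooth muscle protein SM22, by -0.28, Tagln2 by -0.23 and Lmod1, a leiomodin that nucleates filaments, by -0.05. Cald1, caldesmon, differed by 0.03 and Tpm4 by 0.14. All 3 scrambled arrays were below all 3 vehicle arrays for Cnn3 (12.30 to 12.47 with vehicle, 11.83 to 12.26 with scrambled siRNA) and for Tagln2, by small margins.

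Crosslinking and adhesion plaque proteins join filaments to each other and to integrins. Tln1, which encodes the integrin-activating protein talin 1, stood at 10.76, 10.19 and 10.55 with vehicle, at 9.89, 9.83 and 9.82 with scrambled siRNA and at 9.95, 9.91 and 9.77 with CD24 siRNA. The 6 treated arrays lay between 9.77 and 9.95, below all vehicle arrays. The log2 fold change with scrambled siRNA was -0.65 ± 0.14 SE (limma adjusted p = 0.0306; blocked adjusted p = 0.00565). Without the block Tln1 was not called when vehicle replicate 1 or 3, any scrambled replicate or CD24 siRNA replicate 2 was left out, and its log2 fold change ranged from -0.81 to -0.52. With the block it was called in all 9 cases.

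Flnc, the filamin of muscle, stood at 11.08, 10.28 and 10.38 with vehicle and at 10.26, 9.84 and 9.49 with scrambled siRNA, 1.64-fold lower (-0.72 ± 0.25 SE, limma adjusted p = 0.125; blocked adjusted p = 0.0035). Lima1, which encodes the actin-bundling protein EPLIN, stood at 10.73, 10.40 and 10.20 and then at 9.86, 9.94 and 9.59, 1.56-fold lower (-0.65 ± 0.19 SE, limma adjusted p = 0.0805; blocked adjusted p = 0.00376). For each of the pair every scrambled array was below every vehicle array. The blocked calls of Cnn2, Tpm1, Flnc and Lima1 held on leaving out each of the 9 arrays. Actn1, the crosslinker alpha-actinin 1, moved the other way. It stood at 12.28, 11.57 and 12.16 with vehicle, at 12.44, 12.36 and 12.49 with scrambled siRNA and at 12.50, 12.34 and 12.46 with CD24 siRNA, so that every treated array was above every vehicle array.

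The rise of Actn1 was 0.43 ± 0.17 SE log2 units (limma adjusted p = 0.182; blocked adjusted p = 0.0402). Its size rested on the low vehicle array numbered 2: the same-numbered differences were 0.16, 0.79 and 0.33, and without that array the log2 fold change was 0.21. With the block the call was lost on leaving out vehicle replicate 2 or 3, any scrambled replicate or CD24 siRNA replicate 1 (adjusted p up to 0.18). The related Actn4 differed by 0.00 and the filamin gene Flna by -0.11. Vcl, vinculin, stood at 12.11 on the vehicle array numbered 1 and within 10.78 to 11.16 on the other 8 arrays. Its difference of -0.21 thus came from 1 array, with 0.13 and 0.20 in numbers 2 and 3. The zyxin gene Zyx (-0.22) and Pdlim7 (-0.10), an adaptor of the PDZ and LIM family, were not called either.

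The 3 genes of actin turnover were not called. They serve the cycle of monomer and filament: Cfl1, cofilin, severs filaments, Pfn1, profilin, loads monomers, and Cap1 recycles them. Cfl1 stood at 11.50, 11.19 and 11.28 with vehicle and at 10.93, 11.09 and 11.18 with scrambled siRNA, with no overlap (-0.26 ± 0.12 SE, limma adjusted p = 0.217; blocked adjusted p = 0.13). Cap1 differed by -0.33, most of it in number 1 (-0.69, against -0.13 and -0.16). Pfn1 differed by -0.04 and was the steadiest of the 3, within 12.90 to 13.08 on all 9 arrays.

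Of the 2 intermediate filament genes 1 fell. Des, which encodes desmin, stood at 8.05, 8.18 and 7.99 with vehicle, at 7.44, 7.51 and 7.17 with scrambled siRNA and at 7.45, 7.51 and 7.14 with CD24 siRNA. The groups did not overlap, and the pairs of treated arrays with the same number nearly coincided. The log2 fold change was -0.70 ± 0.14 SE with scrambled siRNA (limma adjusted p = 0.0195; blocked adjusted p = 0.00102). The call was lost without vehicle replicate 2 or scrambled replicate 3, and with the block in no case. Vim, vimentin, the main intermediate filament of fibroblasts, was within 13.43 to 13.57 on all arrays (-0.06 ± 0.09 SE, adjusted p = 0.733), although each treated array was below each vehicle array. On its other, dimmer probe set Vim differed by -0.29 with scrambled siRNA and by -0.48 with CD24 siRNA. Those differences were not called in limma over all probe sets with 1 symbol (blocked adjusted p = 0.218 and 0.0555).

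**Figure D2:**
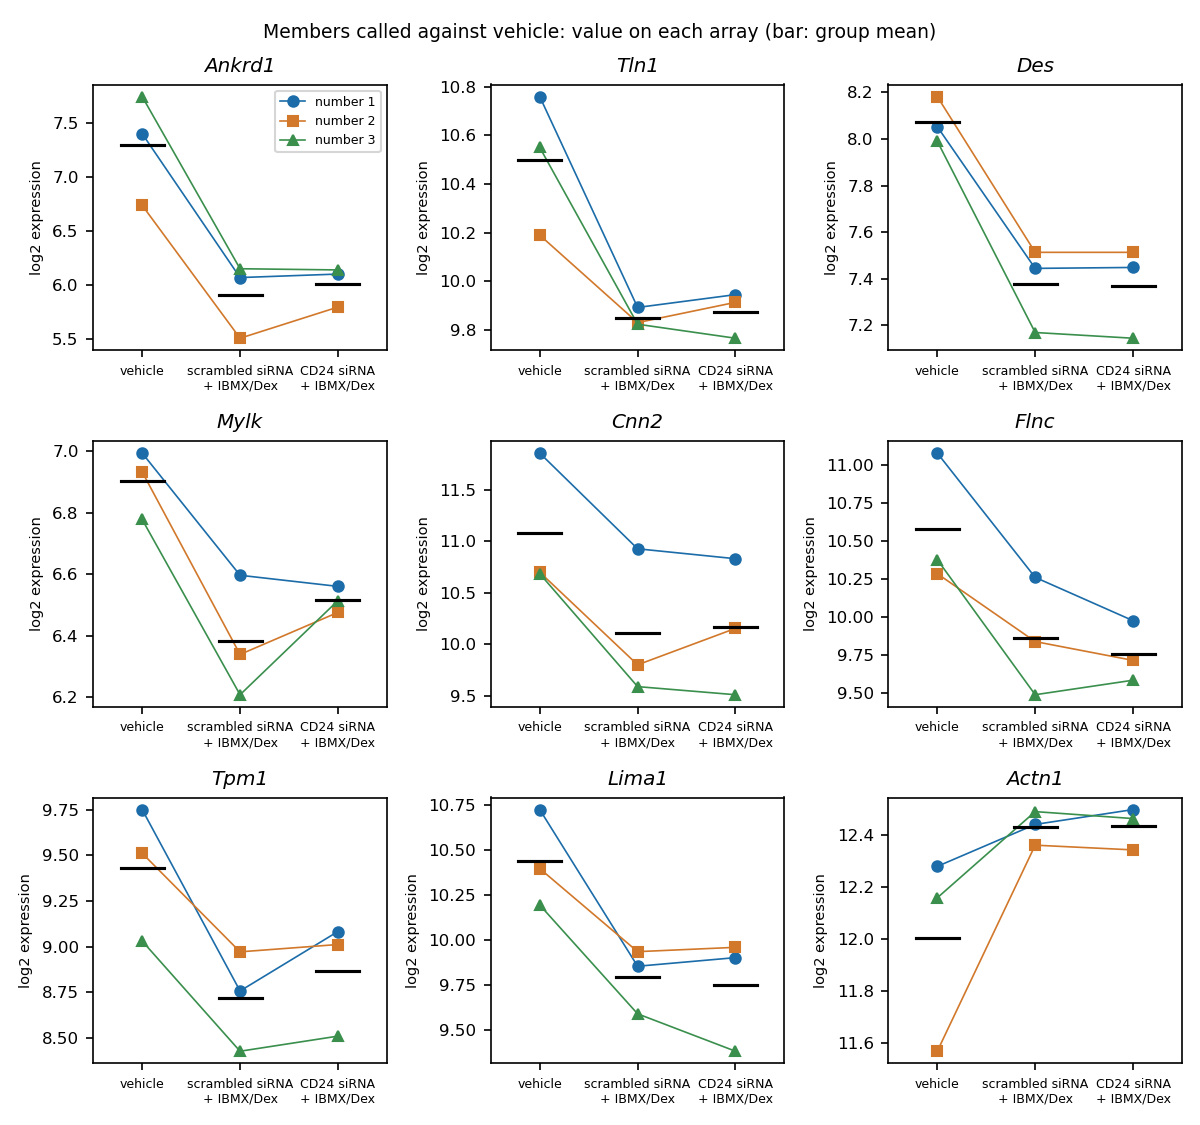
Log2 expression on each of the 9 arrays for the 9 members called against vehicle with or without the block; lines join samples of the same replicate number (circles 1, squares 2, triangles 3) and bars are group means. The vertical axes differ and do not start at 0; for 8 genes every line goes down from vehicle to scrambled siRNA with IBMX/Dex, and for Actn1 every line goes up.

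Without any test, every scrambled array was below every vehicle array for 11 of the 37 members (29.7%, beside 12.3% of all genes) and above for Actn1 (2.7%, beside 12.8%). With CD24 siRNA these were 10 members (27%, beside 13.7%) and again Actn1 (beside 12.1% of all genes). Ankrd1, tested only through its vehicle arrays, is among the 11 and the 10, and is not counted as support. These shares describe the listed genes, and nothing is called particular to them.

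With CD24 siRNA and IBMX/Dex, 3 members fell against the same vehicle arrays: Des (1.63-fold lower, limma adjusted p = 0.02), Tln1 (1.54-fold, adjusted p = 0.036) and Ankrd1 (log2 fold change -1.28 ± 0.26 SE, adjusted p = 0.0232). Ankrd1 was again tested only through its vehicle arrays, with the CD24 siRNA arrays at 5.79 to 6.14, and was called with no filter too (adjusted p = 0.0373). The 3, Ankrd1 included, are 8.11% of the members, and over all genes 6.65% were called, 3.73% as lower. Without Ankrd1 the called members were Des and Tln1. Mylk was 1.30-fold lower and did not pass (adjusted p = 0.1; blocked adjusted p = 0.0228). With the block 9 members were called, 8 lower and Actn1 higher, as in the comparison above, with which this one shares its vehicle arrays. Ankrd1 is again among the 8 and is not counted as support. All genes gave 22.4% called with the block, 12.1% lower and 10.4% higher. Cnn2 was 1.89-fold lower (adjusted p = 0.287; blocked adjusted p = 0.0013), Flnc 1.77-fold (0.0877; blocked adjusted p = 0.00188), Lima1 1.61-fold (0.0676; blocked adjusted p = 0.00285) and Tpm1 1.48-fold (0.185; blocked adjusted p = 0.00634).

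The median of the members was -0.19 beside 0.02 for all genes, and 33 of 37 were below 0, Ankrd1 among them. Without vehicle replicate 1 the median was -0.01, and without the array labelled CD24 siRNA replicate 3 it was -0.09. Without that array, which had not shown a lower Cd24a, no member was called in the fit without the block, and 8 were with it, all lower. Of all 12630 genes, 321 and 1763 were called there, beside 840 and 2831 with all arrays. Without CD24 siRNA replicate 1 the counts of members were likewise 0 and 7, without replicate 2 they were 1 and 7, and without vehicle replicate 1, or 3, the unblocked count was 1. Over all genes these counts were 359 and 1818, then 369 and 1599, and, without the block, 772 and 458. Des was not called without vehicle replicate 2 or CD24 siRNA replicate 1 or 3, and Ankrd1 without vehicle replicate 1 or 3 or any CD24 siRNA replicate. Tln1 was called only without vehicle replicate 2 or scrambled replicate 1. With the block these 3 were called in all 9 cases, and Mylk was not without vehicle replicate 1 or 2 or CD24 siRNA replicate 1 or 2.

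CD24 siRNA against scrambled siRNA, both with IBMX/Dex, compares levels under treatment. No siRNA group went without IBMX/Dex, so a changed response cannot be told apart from a changed starting level. No member was called and no gene (0% of 12630) in limma, without the block or with it. Cd24a, the siRNA target, was tested and not called either. Yet it was lower with CD24 siRNA in numbers 1 and 2. The absence of calls therefore does not show that levels were equal. At an unadjusted p under 0.05, 30 genes (0.238%) passed without the block and 219 (1.73%) with it, and no member was among them (smallest unadjusted p over the members 0.226, and 0.114 with the block). The members' log2 differences ran from -0.25 (Cyr61) to 0.27 (Tagln), with a median of 0.03. Precision differed between members. The 95% interval reached 0.435 log2 units to either side for the median member, 0.196 for the tightest, Vim, and 1.37 for the widest, Cyr61.

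For the members called against vehicle, the interval of the CD24 siRNA difference was -0.49 to 0.69 for Ankrd1, -0.32 to 0.30 for Des, -0.30 to 0.35 for Tln1 and -0.14 to 0.41 for Mylk. These intervals are from the fit without the block. With it the SE of this difference was smaller, 0.12 in place of 0.26 for Ankrd1, 0.09 in place of 0.14 for Des and 0.10 in place of 0.12 for Mylk. Without the array labelled CD24 siRNA replicate 3 no member and no gene, Cd24a included, was called either, with or without the block.

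5 contractile genes were looked at by number because of their values in number 1, so they were picked out after those were seen. In the samples numbered 1, Tagln was 8.53 with scrambled siRNA and 9.69 with CD24 siRNA, and Actg2 was 8.16 and 9.33. Myl9 was higher by 0.78 in that number, Tpm2 stood at 7.69 and 8.28, and Acta2 at 12.49 and 12.85. In number 1 the CD24 siRNA array was thus near the vehicle array while the scrambled array was lower. Des, Mylk and Lmod1 did not show this in number 1, with differences of 0.00, -0.04 and 0.08, and Cyr61 differed the other way by -0.66. Members outside the 5 were also higher with CD24 siRNA in number 1, such as Cap1 by 0.44, Tagln2 by 0.37 and Tpm1 by 0.33. In that number 11 of the 37 tested members were lower with CD24 siRNA. Over all 3 numbers, not number 1 alone, the median log2 fold change between the siRNAs of the 5 tested smooth muscle markers was -0.01. The numbers 2 and 3 did not repeat rises of that size: Tagln differed by -0.11 and -0.23 there, Actg2 by 0.06 and -0.47, and Myl9 by 0.11 and -0.42. Tpm2 differed by -0.06 and -0.01. Acta2 was higher with CD24 siRNA in these numbers too, by 0.09 and 0.13, against 0.36 in number 1. Cd24a was lower with CD24 siRNA in numbers 1 and 2. None of the 5 genes was called (adjusted p = 1 in limma with and without the block).

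**Figure D3:**
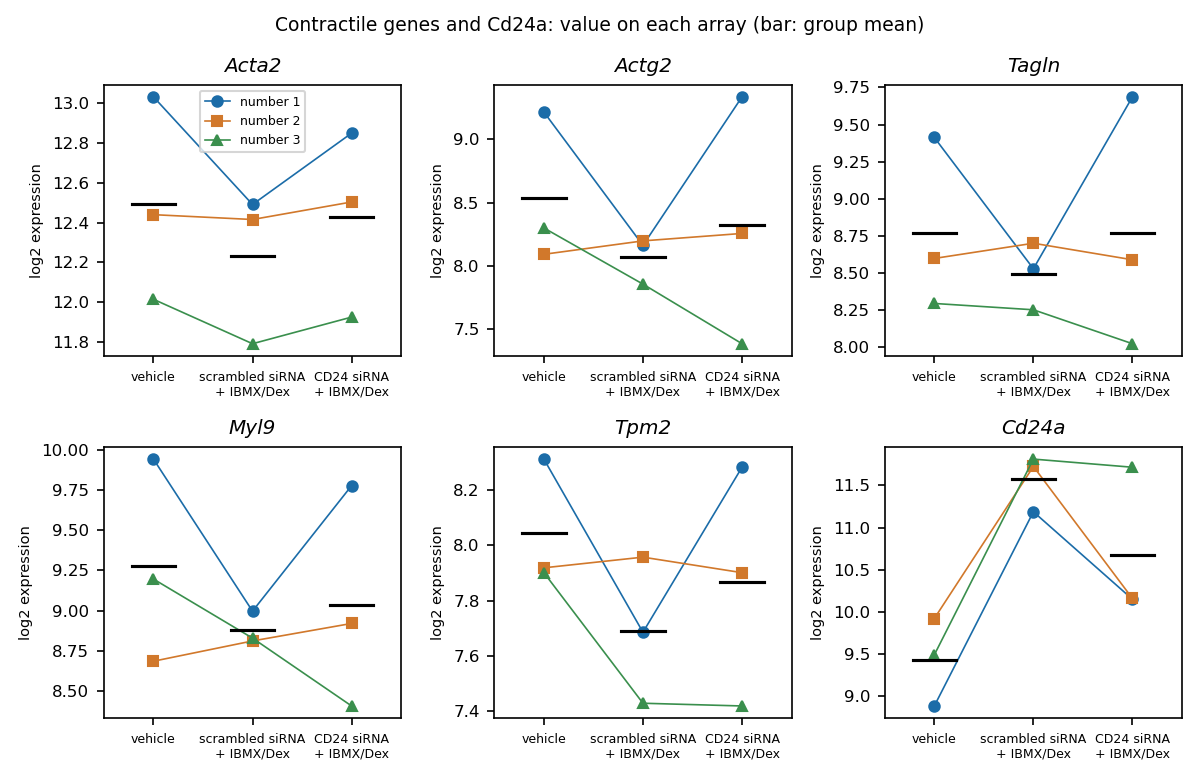
Log2 expression of 5 contractile genes and of Cd24a (brighter probe set) on each array, with lines joining samples of the same replicate number and bars at group means; the vertical axes differ and do not start at 0. In number 1 the 5 genes were lower with scrambled siRNA than with CD24 siRNA, whereas Actg2, Tagln and Myl9 were higher with scrambled siRNA in number 3, where Cd24a was 11.81 and 11.72.

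The members also differed between the replicate numbers. In a limma F test of the number in a fit that also held the group, 16 of 37 members were called (43.2%, beside 24% of all genes tested). With no filter on low values the count was 10. The share of all genes called under that setting is not given here, so the 10 cannot be set against a background. The 16 included 3 of 4 actins (Acta2, Actg1 and Actg2), 3 of 5 myosin genes (Myl9, Myh9 and Myh10) and 4 of the 4 YAP and SRF readouts (Ctgf, Cyr61, Ankrd1 and Amotl2). Tagln, Cnn2, Tpm1, Flnc, Lima1 and Pdlim7 were the others, and no gene of actin turnover, neither intermediate filament gene and not Srf. The number 1 mean was the highest of the 3 in 14 of the 16. Cyr61 differed most, by 1.46 log2 units between number 1 and the mean of numbers 2 and 3, followed by Cnn2 at 1.13 and Actg2 at 0.89 (adjusted p = 0.00125, 8.1e-04 and 0.0433).

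In the vehicle samples, replicate 1 was the highest of the 3 vehicle arrays for 31 of 37 members (83.8%, beside 40.6% of all genes), and lay 0.42 log2 units above the mean of the other pair at the median member (0.04 over all genes). Between the highest and the lowest vehicle array Cyr61 spanned 2.16, Ctgf 1.60, Vcl 1.33, Myl9 1.25, and Cnn2 and Pdlim7 1.17 log2 units. By contrast Vim spanned 0.07 on its brightest probe set, Pfn1 0.08 and Lmod1 0.09. The other Vim probe set stood at 12.13, 11.26 and 12.25 on the vehicle arrays. Myh10, non-muscle myosin IIB, was the member called with its lowest mean in number 1 (-0.36). The labels give no reason for the numbers to differ, and what the number stands for was not tested.

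**Figure D4:**
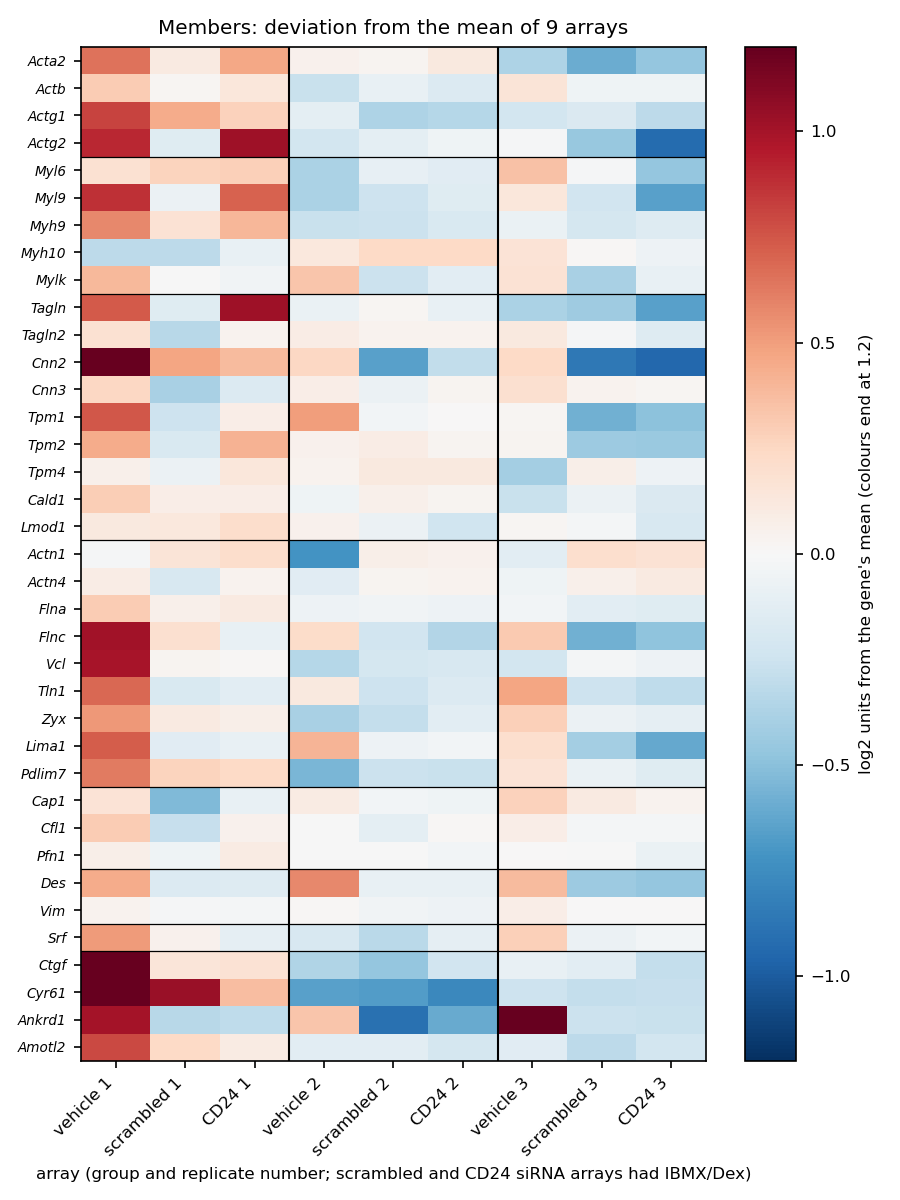
Deviation of each tested member from its own mean over the 9 arrays, in log2 units (red above, blue below, colours ending at 1.2), with arrays ordered by replicate number and genes by role. The vehicle array numbered 1 is red in most rows, and Cyr61, Ctgf and Cnn2 reach the end of the colours there.

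Other genes of the same machinery were taken from lists of known members. Their counts stand beside the shares of all genes called, 6.94% with scrambled siRNA and 6.65% with CD24 siRNA, and 23.3% and 22.4% with the block. Of 11 SRF cofactors and regulators 2 fell with each siRNA and none rose. They were Fhl2, a LIM protein that is itself an SRF target (2.52-fold and 2.40-fold lower, limma adjusted p = 0.0169 and 0.0221), and the ternary complex factor gene Elk3 (1.80-fold and 1.95-fold). Csrp1 and Csrp2, a pair of LIM proteins of muscle, ran in opposite directions with scrambled siRNA, at -0.50 and 0.70 log2 units (adjusted p = 0.115 and 0.167; blocked adjusted p = 0.0146 and 0.00895). With the block 1 rose and 4 fell with scrambled siRNA, and 1 and 3 with CD24 siRNA.

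Of 29 Hippo pathway and TEAD genes 2 rose and 2 fell in each comparison with vehicle. Tead4, a DNA-binding partner of YAP, rose 2.75-fold and 2.61-fold (adjusted p = 0.0382 and 0.0463), and Nf2, merlin, an activator of the pathway, rose 1.48-fold and 1.45-fold. Amot, angiomotin, fell 2.00-fold and 1.86-fold, and Wwc2 fell 1.63-fold and 1.79-fold. With the block 4 rose and 6 fell with scrambled siRNA, and 3 and 7 with CD24 siRNA.

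Of 20 further genes known as YAP and TEAD targets 4 fell with each siRNA and none rose, with medians of -0.24 and -0.30. The 4 were F3, tissue factor (4.98-fold and 5.68-fold lower), the Arf regulator gene Asap1 (1.74-fold and 1.78-fold), Arhgef17 (1.54-fold and 1.52-fold) and Myof, myoferlin (1.32-fold and 1.36-fold). With the block 9 fell and 2 rose with scrambled siRNA, and 10 fell and 3 rose with CD24 siRNA.

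Among 39 tested crosslinkers, filament and adhesion proteins outside the members, 7 fell and Ezr, ezrin, rose in each comparison. The 4 with the smallest p were the LIM protein genes Pdlim2 (3.64-fold lower with scrambled siRNA, limma adjusted p = 0.0111) and Pdlim5 (1.67-fold) and the vinculin-binding protein genes Sorbs2 (2.07-fold) and Sorbs3 (1.87-fold). With CD24 siRNA they were 3.72-fold, 1.81-fold, 2.02-fold and 1.84-fold lower. The block gave 3 risen and 9 fallen, and 3 and 12 with CD24 siRNA. Of 30 nucleation, capping and monomer-binding genes Coro1c, a coronin, rose by 0.49 log2 units with scrambled siRNA (adjusted p = 0.0497) and none fell. With CD24 siRNA Wasf2, a WAVE complex subunit, fell 1.35-fold. With the block 1 rose and 5 fell in each comparison, among them Wdr1, a cofilin cofactor (1.56-fold and 1.47-fold lower), and Coro1b (1.46-fold in each).

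Of 13 tested immediate early genes, SRF targets that respond through ternary complex factors, Ier3 rose 2.89-fold with scrambled siRNA (limma adjusted p = 0.013) and none fell, with a list median of 0.35 log2 units. Fos and Mcl1 differed by 0.57 and 0.56 (adjusted p = 0.137 and 0.117; blocked adjusted p = 0.0176 and 0.00952). Egr1 differed by -0.90 (adjusted p = 0.0652) and fell 2.15-fold with CD24 siRNA (adjusted p = 0.0337). With the block 4 rose and Egr1 fell with scrambled siRNA, and 2 rose and Egr1 fell with CD24 siRNA.

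The cell line was checked against marker genes. Of 12 pre-adipocyte or fibroblast markers 9 were above the filter, with Dcn at a mean of 12.80, while Lum was at 4.90. Of the mature adipocyte markers Fabp4 was brightest at 9.60 and Adipoq was at 5.51. Of the smooth muscle markers Acta2 was brightest at 12.38 and Synpo2 was at 6.06. The brightest markers of other cell types had means of 7.23 (Acta1, skeletal muscle), 7.88 (Tnnt2, cardiac muscle), 8.61 (Cd14, macrophage), 6.80 (Flt1, endothelial) and 6.83 (Krt14, epithelial). Their dimmest were Myh3 (4.87), Myh6 (5.81), Ptprc (4.70), Emcn (4.36) and Epcam (4.86). The summed level of the fibroblast markers was lower with IBMX/Dex. Its log2 ranged from 14.85 to 14.90 with vehicle, from 14.45 to 14.57 with scrambled siRNA and from 14.46 to 14.54 with CD24 siRNA. Pdgfrb fell 3.15-fold and Pdgfra 2.05-fold with scrambled siRNA, and 5 of the 9 tested markers fell with the block and none rose (4 with CD24 siRNA). Fewer cells of a type and less RNA per cell cannot be told apart in these bulk samples, and the part of this decline in the values of the members was not tested.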

How the data were processed

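The deposited log2 values came from RMA in the oligo package, per the submitters' processing notes. RMA subtracts background, equalises the arrays' distributions and gives 1 value for each probe set, which compresses differences of dim ones. Tool versions were not given in the sources used here, nor was a genome build. The 250 ng of RNA per sample, per the labels, gave 1 array each, and the number of arrays limits the precision.

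Gene symbols are those of the platform annotation, in which 23521 of 41345 probe sets have 1 symbol. limma 3.58.1 (R 4.3.3; lmFit and eBayes) was fitted on 12630 genes and all 9 arrays with 1 mean per group. P-values are two-sided and Benjamini-Hochberg adjusted over all genes, with a threshold of 0.05. In the text limma refers to this fit unless the block is named.

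The replicate numbers come from the titles, and same-numbered samples share a code in their descriptions. Members were named array by array where either fit called them, and otherwise by the smallest p of each role group. Of the other lists, the 4 genes with the smallest p were named. The result of 1 further list is not reported here. Tagln, Myl9, Tpm2, Acta2, Actb, Ctgf, Cyr61 and Vcl were added after their values were seen. The members and lists were chosen with earlier results of these data known. On simulated data 142 of 200 genes changed 2-fold in the comparison of scrambled siRNA with vehicle were recovered on average with 9.7 false calls, and 179 with 6.7 false calls with the block. Of 200 genes changed 1.5-fold, 42.3 were recovered without the block and 79 with it. The draws for the blocked fit held a shared effect of the replicate number, and those for the unblocked fit did not. These counts therefore do not compare the fits on the same data. The unblocked fit was not tried on draws in which same-numbered samples deviate together. Alternatives were the block, leaving out each array, 2 filters, 2 normalizations, the mean of probe sets, other probe sets of 5 members and a trended robust prior.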

Additional observations from a re-analysis of the deposited data

How the results depend on the processing

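Under the replicate block, the count of called members, Ankrd1 included, went from 4 to 9 for scrambled siRNA against vehicle. For CD24 siRNA against vehicle it went from 3 to 9. The count of all genes went from 876 to 2942 and from 840 to 2831. The comparison of the siRNAs stayed at 0 for members and genes under all alternatives run. With a filter at the 75th percentile (8.07), which leaves Mylk, Des and Ankrd1 untested, 1 member was called in each comparison with vehicle. Leaving out 1 array without the block gave 1 to 3 members and 313 to 852 genes for scrambled siRNA, and 0 to 3 members and 321 to 857 genes for CD24 siRNA. Leaving out 1 array with the block gave 8 to 10 members and 7 to 10. The counts of genes were 2114, 2629 and 2534 without vehicle replicates 1, 2 and 3, 2050, 1733 and 1583 without scrambled replicates 1, 2 and 3, and 2701, 2539 and 2924 without CD24 siRNA replicates 1, 2 and 3. For CD24 siRNA against vehicle they were 2022, 2632 and 2274, then 2647, 2532 and 2288, then 1818, 1599 and 1763. Between the replicate numbers, 10 members instead of 16 were called with no filter on low values, a setting under which 22180 genes are tested. The count of all genes called there is not given here. No called difference of a member changed its sign, whereas 207 differences called under neither setting did so. Mylk lost its call against vehicle without a filter and with centring on array medians, Tln1 in the CD24 siRNA comparison likewise. The cause was not tested. The number of arrays (3 a group) and the dim signals of Ankrd1 and Mylk limit the precision.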
